A study of Mus musculus with 16 samples.

Results

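Sap130 encodes a subunit of the Sin3-HDAC complex, and the 10 genes described here are Sap130 and 9 other subunits or partners of that complex: Sin3a, Sin3b, Sap30, Sap30l, Suds3, Hdac1, Hdac2, Sinhcaf and Arid4b. They were chosen by name, with earlier results of these data known. Matching to the count table by their Ensembl identifiers gave 10 of its 37991 genes. All 10 passed the filter on low counts in every comparison. Polyadenylated RNA had been sequenced from the ventricles of 8 mouse embryos on a C57BL/6 background, 1 library for the left and 1 for the right ventricle of each embryo. Of these, 3 embryos had HLHS (hypoplastic left heart syndrome), in which the left side of the heart is underdeveloped, and came 1 each from the stages E13.5, E14.5 and E17.5, where E counts days of embryonic development. The 5 controls were from the same litters: 1 littermate of the E13.5 embryo, 2 of the E14.5 embryo and 2 of the E17.5 embryo, so each stage is 1 litter. The labels give the phenotype and the strain of each embryo but no genotype, and they name no treatment. HLHS in mice of this study is known for mutations in Sap130 and Pcdha9, but which alleles each embryo carried is not stated, and counts per gene do not show whether a transcript carried a mutation.

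The Sin3-HDAC complex is a co-repressor. The Sin3 proteins, which do not bind DNA themselves, act as a scaffold that joins the histone deacetylases HDAC1 and HDAC2 to transcription factors at promoters, where removal of acetyl groups from histone tails is associated with lower transcription. Sap130 is one of the subunits attached to that scaffold, and HDAC1 and HDAC2 are known to be needed for normal growth of heart muscle in mice.

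Total counts ran from 17081273 to 28648645 per library. Levels are given in CPM, which are counts scaled to the size of each library with TMM factors. Hand1, a gene of the left ventricle, averaged 22.4 CPM in HLHS and 22.4 CPM in control left ventricles, against 4.43 CPM in HLHS and 4.08 CPM in control right ventricles, so it was higher on the left in both groups. One library stood apart: the right ventricle of control replicate 4 (E17.5) had 34.7 CPM of Xist, the RNA of the inactive X chromosome in females, against 1.25 CPM in the left ventricle of the same embryo. The 7 other libraries low in Xist had at most 1.25 CPM and the 8 high ones had 776 to 1132 CPM, so this library held 3.60% of the Xist level of the right ventricle of control replicate 5. For Sap130 and the subunits and partners named with it above, the calls that use this library are given below also without it. Where the ventricles are summed or paired, that embryo is left out instead. Calls for the related gene lists and the cell markers further below are not given without this library or embryo. In such bulk samples fewer cells of a type and less RNA per cell cannot be told apart. By Xist, sex was not balanced between HLHS and control embryos. The E13.5 HLHS embryo had 1067 CPM (left) and 895 CPM (right), against 0.91 and 0.65 CPM in its control littermate. The E13.5 contrast is thus also female against male. The HLHS embryo was high in Xist at E14.5 and low at E17.5, and each of these litters had a high and a low control embryo. The part of sex in the HLHS changes was not tested.

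Sap130 (ENSMUSG00000024260) was lower in HLHS than in littermate controls in both ventricles. In left ventricles, in the order of the stages, it had 39.3, 26.1 and 34.1 CPM in HLHS, against 51.6 CPM (E13.5), 34.9 and 33.1 CPM (both E14.5) and 36.9 and 45.8 CPM (both E17.5) in controls. In right ventricles it had 36.3, 28.0 and 32.2 CPM in HLHS, against 51.7 CPM (E13.5), 40.7 and 39.0 CPM (both E14.5) and 32.8 and 44.4 CPM (both E17.5) in controls. Values of the other genes below follow the same order of libraries. Each of the 6 HLHS libraries lay below every control library of its own litter and side, while across litters the ranges of HLHS and controls overlapped on both sides. These 6 libraries come from 3 embryos. The share of all genes that separate from littermates in this way was not counted, here or for the genes below. With the litter as a term, Sap130 fell by 0.35 ± 0.08 on the log2 scale in the left ventricle (SE; 3 HLHS and 5 control libraries; adjusted p = 0.023) and by 0.42 ± 0.10 in the right (adjusted p = 0.042). Every adjusted p below, unless another tool is named, comes from the quasi-likelihood test of edgeR, corrected by Benjamini and Hochberg's method over all genes tested. In linear terms HLHS was lower by a factor of 1.27 on the left and 1.34 on the right. With the counts of both ventricles of an embryo summed it fell by 0.39 ± 0.09 (3 and 5 embryos, adjusted p = 0.019).

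The difference in Sap130 was not of one size against the spread of controls. At E14.5 it was −0.38 on the left and −0.51 on the right (log2), while the control embryos of that litter differed from each other by 0.08 and 0.06. At E17.5 it was −0.27 on the left and −0.24 on the right, while the control embryos differed by 0.31 and 0.44, more than the HLHS embryo differed from their mean. The call also turned on single libraries or litters. In all HLHS comparisons with the litter as a term, leaving out control or HLHS replicate 1 removes the E13.5 litter from the contrast. These settings are thus nearly the same fit and not separate failures. Leaving out HLHS replicate 2 or 3 likewise removes its litter from the contrast. In the left ventricle the call was lost without control replicate 1 (adjusted p = 0.086), control replicate 2 (0.058), HLHS replicate 1 (0.081) or HLHS replicate 2 (0.101), with log2 changes of −0.33 in each case. In the right ventricle it was lost without control replicates 1, 3 or 5 or any 1 of the HLHS replicates, at log2 changes of −0.51 to −0.37 over all libraries left out in turn. Without the right ventricle of control replicate 4 the change was −0.49 ± 0.07 (adjusted p = 0.011). Summed over ventricles the call was lost without control replicate 1 (adjusted p = 0.084), HLHS replicate 1 (0.080) or HLHS replicate 2 (0.097). Without the litter as a term, none of the 10 genes passed in any of these comparisons, and Sap130 stood at −0.28 (left, adjusted p = 0.707) and −0.37 (right, 0.564).

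**Figure D1:**
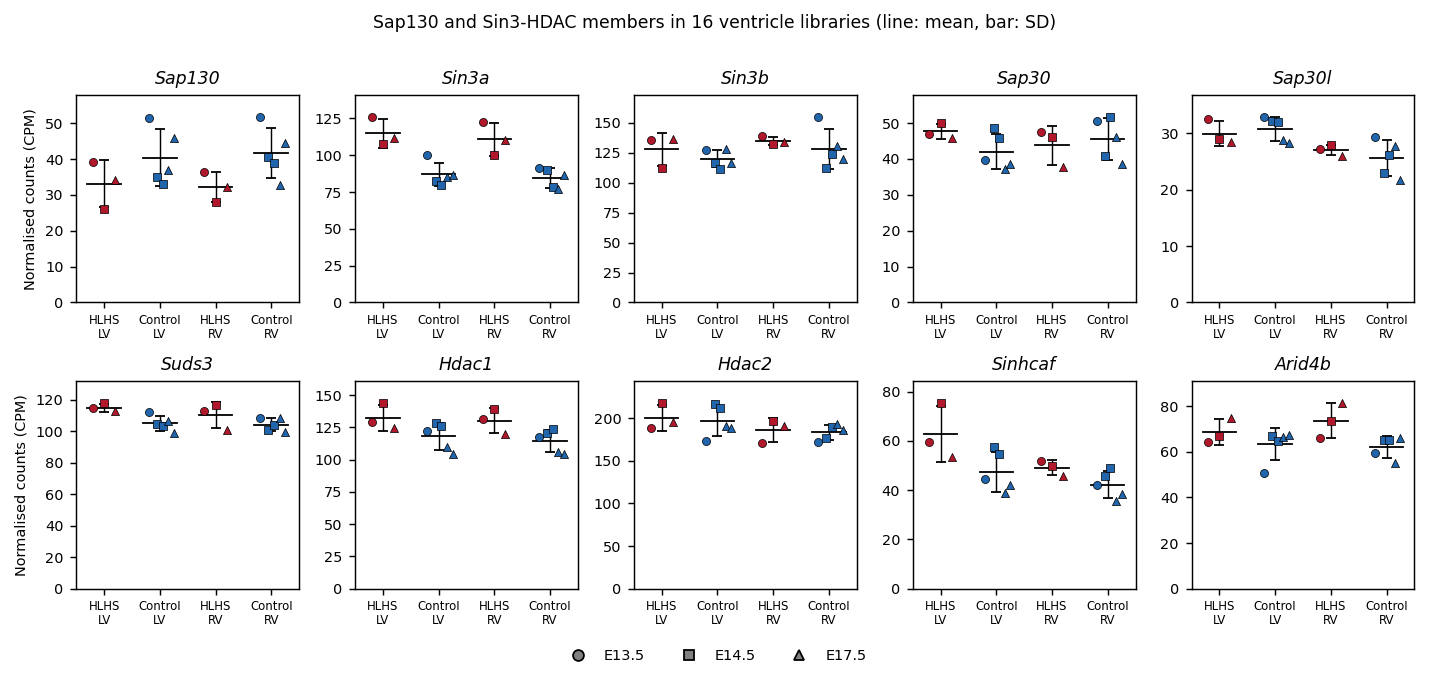
Level in CPM (vertical axis, from 0) of the 10 genes in 16 libraries, by phenotype and side; circles, squares and triangles are E13.5, E14.5 and E17.5, horizontal lines are means and bars are SD. Sap130 lies lower in each HLHS library than in its littermates, and Sin3a in HLHS (100.04 to 126.0 CPM) lies above controls (77.0 to 100.3 CPM), with no overlap within a side.

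Of the scaffolds, Sin3a was higher in HLHS in both ventricles and its paralogue Sin3b was not called in either. Sin3a (ENSMUSG00000042557) had 126.0, 107.4 and 111.6 CPM in HLHS left ventricles, against 100.3, 82.7, 79.9, 85.4 and 86.5 CPM in control left ventricles. In right ventricles it had 122.6, 100.04 and 110.1 CPM in HLHS, against 91.1, 90.0, 78.4, 77.0 and 86.8 CPM in controls. On each side all HLHS libraries were above all controls, whatever the stage, but the share of all genes that separate so was not counted. The log2 change was 0.37 ± 0.04 in the left ventricle (adjusted p = 0.0016), 0.36 ± 0.07 in the right (0.020) and 0.36 ± 0.05 in the summed counts (0.0024). It passed with each library left out in turn in the left ventricle and in the summed counts. In the right ventricle it was lost without control replicate 1 (adjusted p = 0.099), control replicate 3 (0.057), HLHS replicate 1 (0.101) or HLHS replicate 3 (0.105).

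Sin3b (ENSMUSG00000031622), the other scaffold, averaged 128.1 ± 13.8 CPM in HLHS and 119.9 ± 7.16 CPM in control left ventricles (SD, n = 3 and 5). In right ventricles it averaged 135.0 ± 3.37 CPM in HLHS and 128.2 ± 16.3 CPM in controls. Its log2 changes were 0.08 ± 0.05 (adjusted p = 0.397) and 0.05 ± 0.07 (0.728). As a description, the ratio of Sin3a to Sin3b CPM, not corrected for length, was 0.820 to 0.906 in the 3 HLHS embryos and 0.628 to 0.756 in the 5 controls. The ratio of Sap130 to Sin3a CPM was 0.262 to 0.304 in HLHS embryos and 0.430 to 0.541 in controls. Neither of these ratios overlapped between the groups, and both follow from the changes given above. The ratio of Hdac1 to Hdac2 CPM, also looked at, did overlap, at 0.633 to 0.726 in HLHS embryos and 0.557 to 0.691 in controls. The share of all gene pairs whose ratio separates the groups was not counted.

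The stretches just before the start sites of Sin3a and Sinhcaf are shown with that of Sin3b, the scaffold that was not called. Sin3a and Sinhcaf had the largest rises of the 10 genes in HLHS left ventricles. The sequences are from RefSeq, build GRCm38.p6, of 250 bases each, 5′ to 3′ on the strand of the gene. Of the 10 genes, 8 had an entry, with 10 start sites in all; those of Sap130 and Hdac1 were not used here. Of the 2 Sin3a and the 2 Sinhcaf windows the one shown lies outside annotated exons. Capitals mark matches, on either strand, to GGGCGG (bound by Sp1 family factors), CCAAT (bound by NF-Y) and TTTNNCGC (a core of E2F sites).
Sin3a, chr9:57076126-57076375, plus strand: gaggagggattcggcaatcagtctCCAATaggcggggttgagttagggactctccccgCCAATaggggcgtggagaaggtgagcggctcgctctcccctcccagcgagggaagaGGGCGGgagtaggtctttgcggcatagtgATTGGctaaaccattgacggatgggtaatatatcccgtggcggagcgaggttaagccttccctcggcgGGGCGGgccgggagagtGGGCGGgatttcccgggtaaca
Sinhcaf, chr6:148946471-148946720, minus strand: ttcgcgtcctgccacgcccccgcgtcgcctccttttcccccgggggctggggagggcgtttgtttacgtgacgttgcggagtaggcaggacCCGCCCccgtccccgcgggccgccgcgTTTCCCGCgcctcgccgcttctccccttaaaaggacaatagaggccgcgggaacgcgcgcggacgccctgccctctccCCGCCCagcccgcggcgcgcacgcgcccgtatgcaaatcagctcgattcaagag
Sin3b, chr8:72723020-72723269, plus strand: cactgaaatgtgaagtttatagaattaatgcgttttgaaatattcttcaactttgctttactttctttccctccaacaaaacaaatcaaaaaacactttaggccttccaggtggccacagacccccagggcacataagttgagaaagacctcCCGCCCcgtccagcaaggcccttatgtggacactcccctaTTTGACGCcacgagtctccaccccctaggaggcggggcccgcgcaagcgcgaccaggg

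The Sin3a window held 3 CCAAT and 3 GGGCGG matches, the Sinhcaf window 2 GGGCGG and 1 TTTNNCGC match, and the Sin3b window 1 of each of GGGCGG and TTTNNCGC. Both genes that were higher and the one that was not thus held GGGCGG. Of all 32851 promoter windows of this length, 32.7% held GGGCGG, 33.8% held CCAAT and 4.28% held TTTNNCGC. CACGTG, the letters of an E-box that Max and its partners bind, was in 6.02% of all windows and in none of the 10 windows of these genes. CGGAAG, the core of ETS factor sites, was in 13.6% of all windows and in those of Sap30l and Suds3. GGGCGG and CGGAAG can share the letters CGG. A match is a description of the letters and not a site in use.

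Sinhcaf (ENSMUSG00000039985), which encodes a factor that associates with the Sin3-HDAC complex, was higher in HLHS left ventricles. It had 59.6, 75.3 and 53.4 CPM in HLHS, against 44.4, 57.4, 54.7, 39.0 and 42.1 CPM in controls. In right ventricles it had 51.7, 49.9 and 45.7 CPM in HLHS, against 42.2, 45.6, 49.1, 35.4 and 38.6 CPM in controls. All 6 HLHS libraries were above their littermates, although the ranges over all stages overlapped. The log2 change was 0.41 ± 0.06 on the left (adjusted p = 0.0032), 0.22 ± 0.08 on the right (adjusted p = 0.121, not called) and 0.31 ± 0.05 in the summed counts (adjusted p = 0.0075). The left and the summed call held with each library left out.

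The gene was measured with reads that other loci can share. Of the 50-base stretches of its principal transcript, 33.1% also occur in other transcripts of the annotation, chiefly of processed pseudogenes such as Gm6087 and Gm9027. Gm9027 had 290 counts over all libraries, against 19052 for Sinhcaf, and how the authors' counting treated reads with several matches is not given in the sources used here. Exons of Sinhcaf overlap those of 3010003L21Rik on the opposite strand over 5.75% of their length, and those of Sin3a are overlapped over 3.96%.

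Of the deacetylases, Hdac1 was slightly higher in HLHS, called on the left and in the summed counts, and Hdac2 was not called. Hdac1 (ENSMUSG00000028800) had 128.8, 143.6 and 124.9 CPM in HLHS left ventricles, against 121.9, 128.6, 126.0, 109.7 and 104.1 CPM in control left ventricles, and in right ventricles 131.2, 139.4 and 119.7 CPM in HLHS, against 117.3, 120.9, 123.9, 105.6 and 104.5 CPM in controls. It was above its littermates in 6 of 6 HLHS libraries, with overlap between groups over all stages. Its log2 change was 0.17 ± 0.05 in the left ventricle (adjusted p = 0.047), 0.18 ± 0.05 in the right (0.068, not called) and 0.16 ± 0.04 in the summed counts (0.028). The left call was lost with any 1 library left out, at adjusted p of 0.054 to 0.151, and with DESeq2 (0.080) or DESeq2 size factors (0.051). The summed call was lost with any embryo left out other than control replicate 4, at adjusted p of up to 0.129.

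For Hdac1, 58.7% of the 50-base stretches of the principal transcript are shared with processed pseudogenes, mainly Gm10093, which had 405 counts against 47278 for Hdac1. Hdac2 (ENSMUSG00000019777), the other deacetylase, averaged 200.4 ± 15.3 CPM in HLHS and 196.4 ± 17.8 CPM in control left ventricles (SD, n = 3 and 5). In right ventricles it averaged 186.0 ± 13.6 CPM in HLHS and 183.4 ± 8.71 CPM in controls. Its log2 changes were 0.06 ± 0.05 (adjusted p = 0.479) and 0.04 ± 0.06 (0.759), and no 50-base stretch of it was shared.

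Of the remaining subunits, Arid4b (ENSMUSG00000039219), which carries a DNA-binding ARID domain, passed in the summed counts alone. It had 64.2, 66.8 and 74.8 CPM in HLHS left ventricles, against 50.8, 67.0, 64.5, 66.5 and 67.1 CPM in control left ventricles, and 65.9, 73.4 and 81.2 CPM in HLHS right ventricles, against 59.5, 65.3, 64.9, 54.9 and 65.9 CPM in control right ventricles. It was above its littermates in 5 of 6 HLHS libraries and between them in 1. The log2 change was 0.16 ± 0.07 (left, adjusted p = 0.141), 0.26 ± 0.08 (right, 0.081) and 0.20 ± 0.06 (summed, 0.042). The summed call was lost without any 1 embryo other than control replicate 4, at adjusted p of 0.054 to 0.176.

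Suds3 (ENSMUSG00000066900), which holds the deacetylases in the complex, averaged 115.1 ± 2.58 CPM in HLHS and 105.1 ± 4.95 CPM in control left ventricles, and 110.3 ± 8.23 CPM in HLHS and 104.4 ± 4.15 CPM in control right ventricles (SD, n = 3 and 5). Its log2 changes, 0.12 ± 0.05 and 0.07 ± 0.07, did not pass (adjusted p = 0.138 and 0.587). Sap30 (ENSMUSG00000031609), a subunit that bridges Sin3 to other partners, had changes of opposite sign, 0.20 ± 0.06 on the left (adjusted p = 0.073) and −0.09 ± 0.10 on the right (0.644). Sap30l (ENSMUSG00000020519), its paralogue, stood at −0.06 ± 0.06 (0.572) and 0.07 ± 0.10 (0.759).

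Counted over the complex, 4 of the 10 genes passed in the left ventricle (3 higher, 1 lower), where 12.8% of 15979 genes tested passed. In the right ventricle 2 passed (1 higher, 1 lower), where 6.61% of 16142 did, and in the summed counts 5 passed (4 higher, 1 lower), where 13.8% of 17429 did. Because the genes were chosen with earlier results of these data known, these counts are no test of the complex against all genes. The median log2 change of the 10 was 0.14 on the left, 0.07 on the right and 0.07 in the summed counts, against 0.01, 0.01 and 0.00 over all genes tested. Without any one library the number passing was 2 to 3 on the left, 0 to 2 on the right and 2 to 5 in the summed counts. On the left it was 2 without control replicate 1 or 2 or HLHS replicate 1 or 2. On the right it was 0 without control replicate 1 or 3 or HLHS replicate 1 or 3, and 1 without control replicate 5 or HLHS replicate 2. In the summed counts it was 2 without control replicate 1 or HLHS replicate 1 or 2, and 3 without control replicate 2, 3 or 5 or HLHS replicate 3.

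Without the right ventricle of control replicate 4, the library apart in Xist, Sap130 and Sin3a were the 2 genes called on the right, and the change of Sin3a was 0.33 ± 0.07 (adjusted p = 0.027). Hdac1 (0.19 ± 0.05, adjusted p = 0.072), Arid4b (0.21 ± 0.06, 0.076) and Sinhcaf (0.19 ± 0.08, 0.176) were again not called there, and the other 5 genes lay between −0.04 (Sap30) and 0.12 (Sap30l). Without that embryo, the summed counts gave the same 5 genes, with Sap130 at −0.45 ± 0.06 (adjusted p = 0.0039), Sin3a at 0.34 ± 0.04 (0.0037), Sinhcaf at 0.29 ± 0.05 (0.012), Hdac1 at 0.17 ± 0.04 (0.031) and Arid4b at 0.17 ± 0.05 (0.047).

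**Figure D2:**
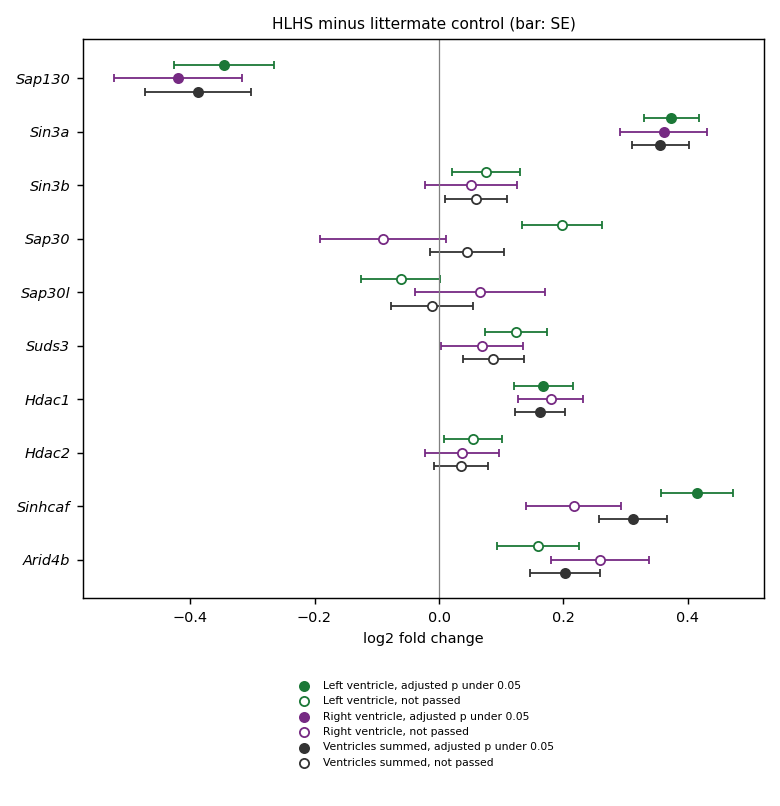
Log2 fold change of HLHS over littermate control (horizontal axis) of the 10 genes in the left ventricle, the right ventricle and the summed counts; points are estimates, bars are SE and filled points passed at an adjusted p under 0.05. Sap130 is the one gene called lower (−0.42 to −0.35), and Sin3a the one called higher in all 3 comparisons (0.36 to 0.37).

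A further fit asked, with the embryo as a block, if the HLHS change on the left differs from that on the right. With edgeR 0 of the 10 genes passed and 0 had an unadjusted p under 0.05, while 0.0182% of 16508 genes passed (3 genes, with 1411 at an unadjusted p under 0.05). The largest difference was that of Sap30, 0.25 ± 0.13 (adjusted p = 0.691), followed by Sinhcaf at 0.18 ± 0.10 (0.742). For Sap130 the difference was 0.08 ± 0.11 (adjusted p = 0.939) and for Sin3a 0.02 ± 0.08 (0.991). That Sinhcaf and Hdac1 passed on the left and not on the right is thus not shown to be a difference between the sides. DESeq2 also called none of the 10 in this test, and neither did edgeR without control replicate 4, where the lowest adjusted p was 0.810 (Sap30l).

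Between the sides of one heart, Sap30l was higher in the left ventricle of controls. In HLHS hearts it had 32.4, 28.9 and 28.4 CPM on the left, against 27.2, 27.9 and 26.03 CPM on the right, a difference of 0.16 ± 0.09 (log2, adjusted p = 0.465, not called). It had 32.8, 32.1, 31.9, 28.8 and 28.3 CPM in control left ventricles, against 29.4, 22.9, 26.2, 27.7 and 21.7 CPM in the right ventricles of the same embryos. In these controls the left was higher in 5 of 5 embryos, by 0.28 ± 0.07 on the log2 scale (adjusted p = 0.041). This was the 1 call among the 10 genes between control sides, where 6.10% of 16238 genes passed. It was lost without control replicate 1 (adjusted p = 0.057), 2 (0.101), 3 (0.120) or 5 (0.120), and without the embryo as a block (0.059). It held without control replicate 4, whose right library stood apart in Xist, at 0.33 and an adjusted p of 0.029. Other genes differed between these control sides too. All 12 proliferation genes tested were higher on the left (median 0.21), 4 of them called (Ccna2, Mcm5, Rrm2 and Top2a). Ryr2 and Myh6 of the 10 cardiomyocyte genes were called lower on the left (−0.43 and −0.42, list median −0.16). All 5 atrial genes were lower on the left (median −0.33), 3 of them called (Sln, Myl7 and Myl4). Postn (matrix), Mrc1 (leukocyte) and Tagln (smooth muscle) were called lower on the left, and Tbx18 (epicardial) higher. The summed level of the proliferation genes was 1950 to 2754 CPM in control left and 1834 to 2355 CPM in control right ventricles. The part of any of these genes in the difference of Sap30l was not tested.

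Between the sides of HLHS hearts, 0 of the 10 genes passed with edgeR (1 had an unadjusted p under 0.05) and 0 with DESeq2, where 4.04% of 15771 genes passed with edgeR. The largest difference was that of Sinhcaf, left higher in 3 of 3 HLHS embryos by 0.36 ± 0.10 (adjusted p = 0.095) and in 5 of 5 controls by 0.17 ± 0.05 (adjusted p = 0.088). In HLHS it passed without the filter on low counts (adjusted p = 0.019) and without HLHS replicate 3 (0.041). Sap130 was higher on the left in 2 of 3 HLHS embryos and in 2 of 5 controls, at 0.05 ± 0.09 (adjusted p = 0.847) in HLHS and −0.05 ± 0.07 (0.705) in controls. Sin3a, Hdac1 and Hdac2 had differences of 0.07, 0.05 and 0.13 in HLHS and 0.04, 0.04 and 0.10 in controls, none of which passed.

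Over development, Sinhcaf and Hdac1 were lower at E17.5 than at E14.5 in controls. Sinhcaf had 55.7 CPM at E13.5, 62.6 CPM at E14.5 and 49.6 CPM at E17.5 in HLHS embryos (mean of both ventricles), against means of 43.3, 51.7 and 38.8 CPM in control embryos. From the libraries, all 4 control values at E17.5 (35.4 to 42.1 CPM) were below all 4 at E14.5 (45.6 to 57.4 CPM). The 4 libraries of a stage come from 2 embryos of the same litter, and the share of all genes that separate so was not counted. At E17.5 against E14.5 in controls, 2 embryos each with ventricles summed, Sinhcaf fell by 0.41 ± 0.08 on the log2 scale (adjusted p = 0.0094), and passed with each embryo left out.

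Hdac1 had 130.03 CPM at E13.5, 141.5 CPM at E14.5 and 122.3 CPM at E17.5 in HLHS embryos, against means of 119.6, 124.9 and 106.0 CPM in control embryos. Its log2 difference between E17.5 and E14.5 in controls was −0.23 ± 0.05 (adjusted p = 0.022). This call was lost without control replicate 2 (adjusted p = 0.126), 3 (0.130) or 5 (0.086). Without control replicate 4, Hdac1 stood at −0.26 (adjusted p = 0.034) and Sinhcaf at −0.36 (0.024). These were 2 of the 10 genes, both lower, where 30.0% of 16823 genes passed. With 1 sample left in a group, that sample was assumed to vary like those of the other.

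Sap130 was highest at E13.5 in both groups. It had 37.8 CPM at E13.5, 27.1 CPM at E14.5 and 33.2 CPM at E17.5 in HLHS embryos, against means of 51.7, 36.9 and 40.0 CPM in control embryos. Both series had their lowest value at E14.5, and with 1 embryo at E13.5 in each group no test was made of that stage. Between E17.5 and E14.5 its difference in controls was 0.13 ± 0.12 (adjusted p = 0.456). The other 7 genes did not pass either, with differences from −0.20 (Sap30) to 0.11 (Sin3b). Each stage is 1 litter, so stage and litter cannot be told apart.

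**Figure D3:**
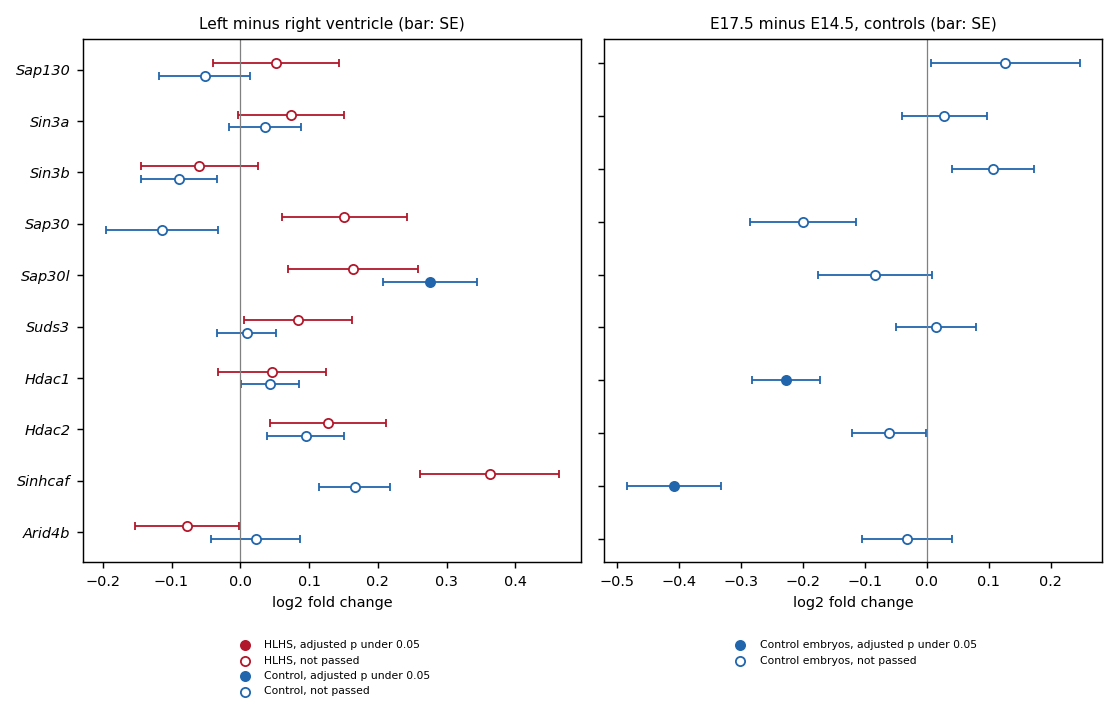
Log2 fold changes (horizontal axes) of the 10 genes for left over right ventricle within embryos, in HLHS and controls, and for E17.5 over E14.5 in controls; bars are SE and filled points passed at an adjusted p under 0.05. Sap30l is the one called between control sides (0.28), and Sinhcaf (−0.41) and Hdac1 (−0.23) are called between stages.

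Compared per kilobase of the principal transcript, on which counts depend, Hdac2 was the highest of the 10 and Sap130 the lowest. Hdac2 stood at 96.4 ± 6.91 CPM per kb in HLHS and 94.7 ± 5.34 in control embryos (SD, n = 3 and 5, mean of both ventricles), and Hdac1 at 64.4 ± 4.74 and 57.0 ± 4.76. Below them in controls came Suds3 (43.2), Sap30 (37.2), Sin3b (30.2), Sap30l (24.5), Sin3a (16.5), Sinhcaf (16.1) and Arid4b (10.7). Sap130 stood at 8.14 ± 1.34 in HLHS and 10.2 ± 1.77 in controls. Sin3a and Sinhcaf did not differ beyond their spread in controls (SD of 1.23 and 2.38), nor did Arid4b and Sap130 (0.815 and 1.77). The order depends on which exons are counted. With all annotated exons as the length, Hdac2 stayed first, Suds3 moved to rank 8 from rank 3 and Sap130 in controls to rank 9.

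Of 12 further Sin3 subunits 11 were tested (Sap25 was not), and in the left ventricle 2 rose and 0 fell, where 12.8% of all genes tested passed. These were Ing2 (0.36 ± 0.08, adjusted p = 0.018) and Ing1 (0.34 ± 0.05, 0.0053), whose proteins read methylated histone tails. Ing1 also rose in the right ventricle (0.28 ± 0.06, adjusted p = 0.032), as the 1 call of that list there, where 6.61% of all genes passed. In the summed counts Ing2 (0.32 ± 0.07) and Ing1 (0.30 ± 0.05) were called, where 13.8% of all genes passed. The median log2 change of the list was 0.01 on the left, 0.03 on the right and 0.02 in the summed counts. In later controls 3 of them rose and 0 fell at E17.5 against E14.5, Arid4a (0.42 ± 0.07), Foxk2 (0.36 ± 0.05) and Brms1l (0.24 ± 0.07), where 30.0% of all genes passed. In a list of 11 genes these counts are near those shares, so they show nothing particular to the list.

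Among 14 factors that bring Sin3 to DNA, 2 rose and 0 fell in HLHS left ventricles, with a median of 0.12, where 12.8% of all genes passed. These were Mnt (0.29 ± 0.08, adjusted p = 0.036) and Mxi1 (0.27 ± 0.06, 0.019), both partners of Max in repression. In the right ventricle (median 0.04) 0 passed with edgeR, 3 had an unadjusted p under 0.05 and DESeq2 called 1, and Mnt was the 1 call in the summed counts (0.23 ± 0.07). Between E17.5 and E14.5 in controls, Max rose (0.43 ± 0.09) and Klf11 (−0.56 ± 0.08), Klf10 (−0.48 ± 0.08) and Rest (−0.31 ± 0.08) fell, which is 4 of 14 where 30.0% of all genes passed. Rest encodes a silencer of neuronal genes. The shares called in this list were thus near or below those of all genes.

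Of the 9 other histone deacetylases, Hdac5 was called in HLHS left ventricles (0.24 ± 0.05, adjusted p = 0.017). In right ventricles 0 passed with edgeR or with DESeq2, and 2 had an unadjusted p under 0.05 with edgeR. Hdac11 was the 1 call between control sides, higher on the left (0.28 ± 0.05). It and Hdac8 fell at E17.5 against E14.5 (−0.27 ± 0.08 and −0.50 ± 0.11). Of 16 genes of other complexes built on HDAC1 and HDAC2, Mta1 of the NuRD complex rose in HLHS left ventricles (0.19 ± 0.05, adjusted p = 0.036), which DESeq2 did not call. Rcor2 of the CoREST complex fell in HLHS right ventricles (−0.44 ± 0.10, adjusted p = 0.037), and was higher in the left than in the right ventricle of HLHS hearts (0.47 ± 0.10, adjusted p = 0.031). At E17.5 against E14.5 in controls, Rcor2 (0.45 ± 0.08) and Zmym2 (0.33 ± 0.08) rose while Phf21a (−0.43 ± 0.10) and Chd3 (−0.31 ± 0.08) fell. Beside the 12.8% (left), 6.61% (right) and 30.0% (stage) of all genes that passed, neither of these 2 lists had a share of calls above that of all genes in the HLHS or the stage comparison.

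**Figure D4:**
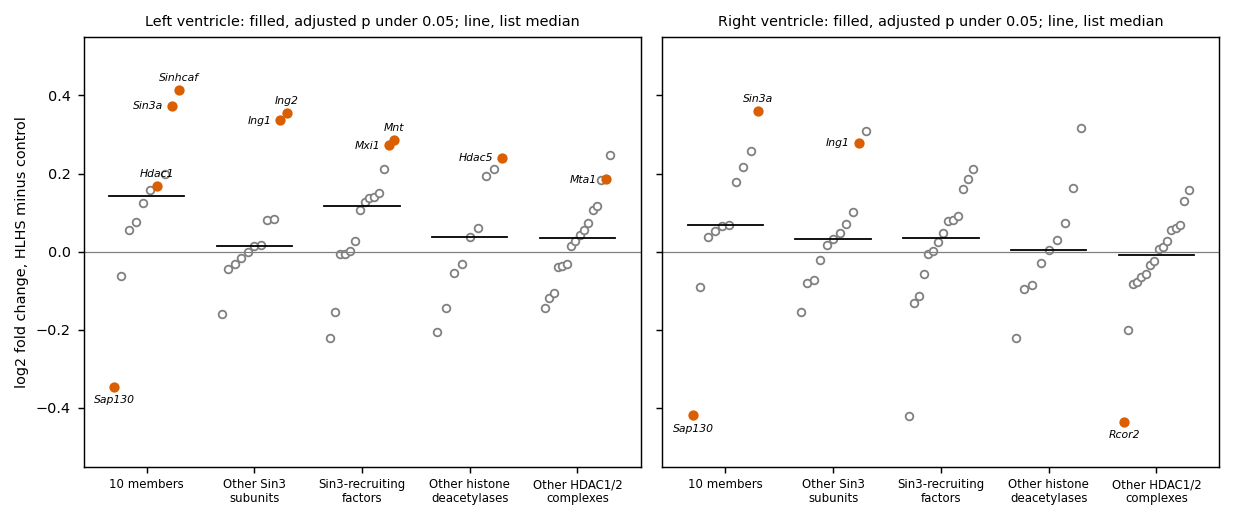
Log2 fold change of HLHS over littermate control (vertical axis) for the 10 genes and 4 related lists, in the left and the right ventricle; each point is 1 gene, filled points passed at an adjusted p under 0.05 and lines are list medians. The 10 genes spread from −0.35 to 0.41 on the left, with medians of 0.14 for them and 0.01 for the other subunits.

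Over the 16 libraries, the genes whose log2 CPM was most like that of Sap130 among 11500 genes with a symbol and an average log2 CPM of at least 2 were Ush1c (Pearson r of 0.92), Pitpnm2 (0.91), R3hdm2 (0.90), Mef2d (0.90) and Syk (0.89). With the mean of each litter and side subtracted, they were Atcay, Tom1l2, Pde8a, Ksr1 and Mprip (all 0.96). These values are descriptions over libraries that share embryos and litters. What is left after subtraction holds the difference of HLHS from control. At E13.5 it holds that alone, between embryos that also differ in sex. The values after subtraction thus partly restate the changes given above. None of the other 9 genes was near the top. After subtraction, Hdac1 stood at −0.85, Suds3 at −0.83 and Sin3a at −0.72, and Sap30l was nearest to 0 at −0.31.

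Some markers of other cells differed between the groups in which these genes were called. Of all genes tested, 12.8% passed on the left and 6.61% on the right, the shares to set beside the counts that follow. Of 5 atrial, 5 epicardial and 6 leukocyte genes, edgeR called Npr3 (atrial) and Tcf21 (epicardial) lower on the left and Mrc1 (leukocyte) higher on the right. Erythroid genes were called higher for 9 of 10 tested in HLHS left ventricles, with a summed level of 754 to 1344 CPM in HLHS and 470 to 830 CPM in controls, and with edgeR for 0 of 10 in right ventricles, where 1 had an unadjusted p under 0.05 and DESeq2 called 1 (562 to 818 CPM in HLHS, 488 to 779 CPM in controls). Smooth muscle genes had 2 of 4 higher and 1 lower on the left (1358 to 2908 CPM in HLHS, 1163 to 1491 CPM in controls) and 2 of 4 higher on the right. Of 10 cardiomyocyte genes 2 were called lower on each side with edgeR. On the right all 10 had negative changes (median −0.27) and DESeq2 called 7, with a summed level of 21399 to 29679 CPM in HLHS and 26060 to 36035 CPM in controls. On the left 6 of 10 were negative (median −0.02) and DESeq2 called 3, with 23419 to 28479 CPM in HLHS and 21005 to 33281 CPM in controls.

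Fibroblast and matrix genes moved differently on the 2 sides. On the left all 7 had negative changes (median −0.27) and 3 were called lower (Dcn, Postn and Col3a1), with a summed level of 3638 to 4374 CPM in HLHS and 4191 to 5329 CPM in controls. On the right all 7 had positive changes (median 0.38), of which edgeR called 0, DESeq2 called 4 and 6 had an unadjusted p under 0.05, with 5093 to 6865 CPM in HLHS and 2894 to 5917 CPM in controls. Of 7 endothelial genes, all were negative on the left (median −0.22) and 2 were called lower (Cldn5 and Cdh5), with 887 to 1221 CPM in HLHS and 1143 to 1294 CPM in controls. On the right 5 of 7 were negative (median −0.10) and Cldn5 was called lower, with 1033 to 1261 CPM in HLHS and 1226 to 1290 CPM in controls. Proliferation genes had 2 of 12 called higher on the left, near the 12.8% of all genes. With edgeR and DESeq2 they had 0 called on the right (3 at an unadjusted p under 0.05). At E17.5 against E14.5 in controls 7 of 12 were called lower (median −0.25), where 30.0% of all genes passed and where Sinhcaf and Hdac1 also fell. In the same comparison all 10 cardiomyocyte genes had positive changes (median 0.31) and 5 were called higher. The change of Sap130 was −0.42 on the right and −0.35 on the left, and that of Sin3a 0.36 and 0.37. The part of these markers in these changes, and in those of the other genes of the 10, was not tested on either side.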

How the data were processed

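RNA of 16 ventricle libraries from 8 embryos was measured. The authors deposited raw counts per gene, as whole numbers. Per the submitters' processing notes, HTSeq 0.5.4p5, edgeR 3.4.2, Picard and TopHat2 2.0.9 are listed as tools and mm9 as the genome build. Per the labels' protocols the library kit was TruSeq RNA v2, which does not mark strand. Which annotation and counting mode were used, and what was done with duplicates, is not given in the sources used here. The authors' own comparisons were not used.

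Symbols were found for 32919 of 37991 genes (86.6%), and genes without one hold 0.492% of the counts. Groups come from the labels. Of 26 library pairs within a group none agreed within sampling noise (chi-square of at least 7.51 per degree of freedom). Titles put both ventricles of an embryo and the littermates together, and after subtracting group means the ventricles of an embryo correlated at r of 0.41 to 0.76 across genes.

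Tests used edgeR 4.0.16 (R 4.3.3) with filterByExpr (counts of at least 10, totals of at least 15), TMM factors, and glmQLFit with glmQLFTest. Adjusted p are Benjamini-Hochberg values over all genes tested, called under 0.05. The model for HLHS against control had stage, which is the litter, as a term, that for sides had the embryo as a block, and E17.5 was set against E14.5 in controls on summed counts. Standard errors are the log2 change divided by the root of the F statistic. Each fit was also run on simulated counts that held no differences between litters, embryos or sexes. The changes put into them were larger than those of the 10 genes. That run thus does not show how the fits perform on data like these. All embryos are separate animals. Shared 50-base stretches and exon overlap were counted in the GENCODE transcripts of build GRCm38, and promoter sequences are from RefSeq (GRCm38.p6); no coordinates were carried over from mm9.

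The 10 genes were tested in every comparison, and each of them that passed in the main fit is named. Genes of 4 related lists are named where they passed, up to 4 per list. The members and lists were chosen with earlier results of these data known. Alternatives were DESeq2 1.42.0, its size factors, all libraries in 1 fit, no block, no count filter and each library left out in turn. The length over all annotated exons was added after seeing the data. Intervals on shares are not given.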

Additional observations from a re-analysis of the deposited data

Results flagged for a closer look

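Arid4b in the left ventricle of control replicate 1 (E13.5), at 50.8 CPM, lay far below the 4 other control left ventricles (64.5 to 67.1 CPM). This was 1 of 20 groups looked at, and chance flags about 1 in 20. The right ventricle of the same embryo had 59.5 CPM, and without this left library the left change of Arid4b did not pass either.

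Xist, a gene outside the comparisons, had 34.7 CPM in the right ventricle of control replicate 4, above the 1.25 CPM of the left ventricle of that embryo. Without that library the right ventricle had 842 genes called and the same number of the 10 genes, 2.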

How the results depend on the processing

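Among 740 values of a single gene of the 10 under an alternative, 674 kept their side of the threshold, 61 lost a call and 5 gained one. No value that was called under either setting changed sign, while 35 values that were called under neither did, all of them between −0.07 and 0.05 under the alternative. Not all of these values could move. Between HLHS sides the fit without the embryo block was the same as the main fit, with 637 genes called in both. In the HLHS comparisons with the litter as a term, leaving out control or HLHS replicate 1 gave nearly the same fit. Without the replicate block (litter, or embryo for the sides) the genes called among the 10 were 0 on the left, 0 on the right, 0 in the summed counts and 0 between control sides, and over all genes 1 on the left, 0 on the right, 0 summed and 9 for the difference between ventricles. With all 16 libraries in 1 fit, 4 of the 10 passed on the right. Without a count filter 1 of the 10 passed between HLHS sides, and the genes called were 1720 on the right, 217 for the difference between ventricles, 1570 between control sides and 1309 between HLHS sides. DESeq2 called 134 genes for the difference between ventricles. Leaving out each library or embryo gave 2 to 3 of the 10 genes on the left, 0 to 2 on the right, 2 to 5 summed, 0 to 1 between control sides, 0 to 1 between HLHS sides and 1 to 2 between stages. Over all genes it gave 845 to 2309 on the left, 195 to 1518 on the right, 865 to 2135 summed, 0 to 135 for the difference between ventricles, 486 to 883 between control sides and 270 to 1117 between HLHS sides. The cause of these shifts was not tested. No paired analysis was possible because the E17.5 and E14.5 embryos come from different litters and share no replicate number. Each of the 10 genes had at least 501 counts in every library.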
